A study of Rattus norvegicus with 72 samples.

Results

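Sensory neurons of the dorsal root ganglion depend on secreted neurotrophic factors and on the receptors that read them, and 9 genes of these systems were followed here after injury of the sciatic nerve. They were the ligands Bdnf and Gdnf, the neurotrophin receptors Ntrk2, Ntrk3 and Ngfr, the signalling receptor Ret, and its co-receptors Gfra1, Gfra2 and Gfra3. Members were chosen by name: a probe set counted for a gene when the platform annotation gave it that gene symbol and no other, and the brightest probe set over all arrays stood for the gene. All 9 of 9 were on the array, through 18 probe sets, among 14217 named genes. Of these 8 passed the filter on dim probe sets and Gdnf did not, so tests cover 8 members among the 12276 genes tested.

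RNA of L4 and L5 dorsal root ganglia, taken from Wistar rats 8 to 12 weeks old, was measured on 72 Affymetrix arrays. The 21 sham arrays came from animals with sham surgery, and 22 proximal and 29 distal arrays from animals with a crush at a site that the labels call proximal or distal, without a distance. Ganglia were taken at 8 times over 28 h, and a group of lesion and hour held 1 to 6 arrays. The hours are pooled below into windows: early (1, 3 and 8 h), middle (12 and 16 h) and late (18, 24 and 28 h). The early and the late window each held 9 sham, 9 proximal and 12 distal arrays, and the middle window 3, 4 and 5. Values are log2 intensities, on which 1 unit is a 2-fold change. Whether each array is a different animal, and whether ganglia were pooled, is not stated in the labels. A p-value here therefore covers array-to-array spread alone, and that may be technical.

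Neurotrophins are secreted proteins that bind Trk receptor kinases and the p75 receptor. Brain-derived neurotrophic factor, the product of Bdnf, acts through TrkB (Ntrk2), neurotrophin-3 acts mainly through TrkC (Ntrk3), and all of them bind p75 (Ngfr). Ligands of the GDNF family bind a GFRalpha co-receptor on the cell surface (Gfra1 for GDNF, Gfra2 for neurturin, Gfra3 for artemin), and the complex activates the kinase Ret. In the ganglion these receptors mark different classes of sensory neuron, with TrkC in proprioceptors and other large neurons and Ret in many non-peptidergic nociceptors. A nerve injury cuts neurons off from factors supplied by their targets.

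Some arrays stood apart before any member was considered. Clustering of the arrays on probe sets below the filter was cut at 4 groups, a chosen number, called technical sets A to D here. They come from the values and not from a batch label, and whether they reflect array processing was not tested. Distal arrays filled set A alone (27 of 29 distal arrays, with 1 in B and 1 in C), so lesion and set cannot be told apart between distal and sham arrays. Sham and proximal arrays of 1 hour lay in the same sets in equal numbers at every hour except 16 h, where the sham array was in set B and the proximal arrays were in B and C. The label check was Atf3, a transcription factor induced by axon injury. In the late window it read 7.83 to 10.16 in the 9 sham arrays and 11.88 to 12.68 in the 9 proximal arrays. In the middle window, however, the sham array 12 h b read 11.55 and the sham array 16 h a read 9.97, against 7.32 in the sham array 12 h a; the 16 h value lies within the late sham range. Middle differences of the members tested are therefore given with and without these 2 sham arrays. The sensory neuron marker list (18 genes tested) had a mean level of 11.38 to 11.89 in late sham arrays and of 11.33 to 11.73 in late proximal arrays.

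Across the 8 members tested, calls after a proximal lesion came in the late window and in both directions. In the late window Bdnf and Gfra1 rose and Gfra2 and Ngfr fell, while Ntrk2, Ntrk3, Ret and Gfra3 did not pass the test. The test was limma on all 72 arrays with Benjamini-Hochberg adjustment over the genes tested, passed at an adjusted p under 0.05. Of all genes tested 9.71% passed it in this comparison, 5.35% as higher and 4.36% as lower, against 2 higher and 2 lower members of 8. The median difference was -2e-04 over the members and -0.02 over all genes tested. In whole ganglia a fall in cells of a type and less RNA per cell cannot be told apart.

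**Figure D1:**
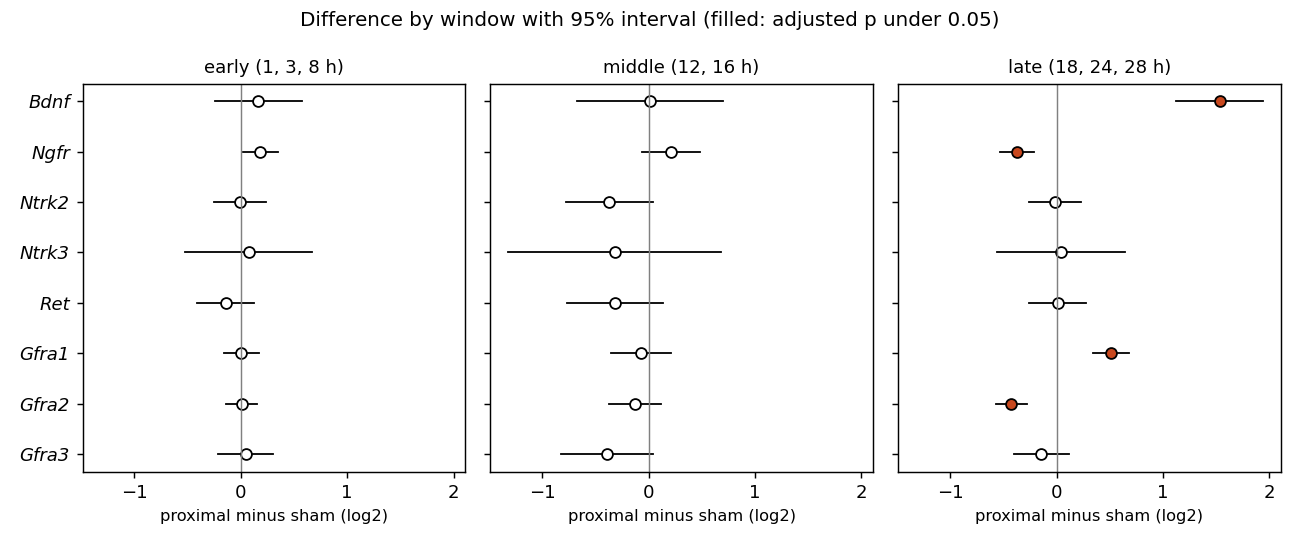
Difference between proximal and sham arrays (log2 scale, horizontal axis) for the 8 members tested (vertical axis) in the early, middle and late windows; points are estimates, bars are 95% intervals, and filled points passed the test. No point is filled in the early and middle windows, and Bdnf (1.53), Gfra1 (0.51), Gfra2 (-0.42) and Ngfr (-0.37) are filled in the late window.

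Bdnf, the neurotrophin that sensory neurons themselves make and release, had the largest late difference of the 8 members tested. At 18 h its level was 8.53, 8.44 and 8.33 in the sham arrays and 10.01, 9.99 and 9.16 in the proximal arrays. At 24 h the sham arrays read 8.28, 7.92 and 7.99 and the proximal arrays 9.51, 9.90 and 9.47. At 28 h they read 7.69, 8.05 and 7.91 against 9.28, 9.75 and 9.87. Every late proximal array thus lay above every late sham array, a separation found, in either direction, for 1.42% of the genes tested. The late difference was 1.53 (SE 0.20, limma adjusted p = 7.94e-08), a 2.89-fold rise with a 95% interval of 2.18 to 3.84. It was 1.52 between the set B arrays at 18 h (2 against 2) and 0.82 between the set C arrays (1 against 1). Without the 18 h arrays, which leaves 24 and 28 h in set D alone, it was 1.65 (limma adjusted p = 4.31e-07).

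The second Bdnf probe set, which is dimmer (mean 7.84), moved the same way. It read 7.70 to 7.96 in late sham arrays and 7.98 to 8.56 in late proximal arrays, which did not overlap. Its difference was smaller, 0.43 (SE 0.06, limma adjusted p = 6.45e-07), so the size of the rise depends on the probe set.

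RefSeq lists 6 start sites for Bdnf, and the platform annotation does not tie a probe set to 1 of them. Promoter windows of 300 bases (250 before to 50 after a start) were read from RefSeq on build GRCr8. They are printed for the member that rose most, Bdnf, and for Gfra1, which rose with it. Of the members 5 had windows in the table, and Ntrk2, Ntrk3, Ngfr and Gfra2 were not in it. Each sequence below runs 5′ to 3′ on the strand of its gene. Capitals in the first mark TGACG, the short form of the cAMP response element, here on the opposite strand. In the second they mark a STAT site (TTCNNNGAA), and in the third GC boxes (GGGCGG, on either strand).
Bdnf, start 4 by position, chr3:116637608-116637907, plus strand: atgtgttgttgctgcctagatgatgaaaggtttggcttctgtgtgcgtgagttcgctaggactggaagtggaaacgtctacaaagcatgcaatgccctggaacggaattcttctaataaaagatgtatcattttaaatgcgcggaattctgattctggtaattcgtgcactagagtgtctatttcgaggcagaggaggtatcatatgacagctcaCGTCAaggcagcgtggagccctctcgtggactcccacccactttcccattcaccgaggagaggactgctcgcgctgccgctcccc
Bdnf, start 1 by position, chr3:116619383-116619682, plus strand: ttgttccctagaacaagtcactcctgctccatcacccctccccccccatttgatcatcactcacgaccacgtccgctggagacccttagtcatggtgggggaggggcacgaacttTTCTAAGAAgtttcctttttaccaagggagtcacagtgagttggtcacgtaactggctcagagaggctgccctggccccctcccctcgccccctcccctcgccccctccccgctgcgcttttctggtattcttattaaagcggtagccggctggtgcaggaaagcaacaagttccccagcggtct
Gfra1, chr1:267555762-267556061, minus strand: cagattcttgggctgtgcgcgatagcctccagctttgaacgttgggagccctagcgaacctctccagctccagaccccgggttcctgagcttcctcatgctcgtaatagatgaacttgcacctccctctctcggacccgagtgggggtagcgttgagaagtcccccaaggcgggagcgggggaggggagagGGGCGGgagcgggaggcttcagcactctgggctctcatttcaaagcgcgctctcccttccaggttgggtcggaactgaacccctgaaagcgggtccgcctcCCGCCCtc
Both strands were searched in all 33469 windows of the table. The letters TGACG, which also occur inside the full element TGACGTCA, were in 21.2% of them, TTCNNNGAA in 8.87% and GGGCGG in 33.1%. The full element (1.83% of windows) and the AP-1 site TGACTCA (4.63%) were in none of the 6 Bdnf windows and not in the Gfra1 window. Of the 6 Bdnf windows only that of start 4 held TGACG and only that of start 1 the STAT site. The Bdnf windows printed are thus those with a match to these motifs. The Gdnf window held TGACG too. GC boxes also lay in the window of Bdnf start 3 (2 boxes) and in that of Gfra3 (3 boxes), a member that did not pass, against 2 in Gfra1. These matches are a description of the letters and were not tied to the measurements.

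Bdnf showed no difference that passed the test before 18 h. Early levels ran from 7.55 to 8.49 in the 9 sham arrays and from 7.47 to 8.47 in the 9 proximal arrays, nearly the same range. The early difference was 0.16 (95% interval -0.25 to 0.57, limma adjusted p = 0.879). At 8 h the proximal arrays read 8.47, 8.29 and 7.90 and the sham arrays 7.71, 7.55 and 7.87, a difference of 0.51 (limma adjusted p = 0.633). The late difference exceeded the early one by 1.37 (SE 0.29, limma adjusted p = 0.00111), where 8.67% of the genes tested passed. By single hours Bdnf passed at 18 h (1.29, adjusted p = 0.0414), 24 h (1.56, 0.0073) and 28 h (1.75, 0.000637) in limma. The share of genes that passed was 1.51%, 1.21% and 4.47% at these hours. With 3 arrays a group, the call at 18 h was lost in 5 of the 6 fits that left out 1 array (adjusted p up to 0.253) and held only without proximal 18 h c. It was lost too when the model used the arrays of that hour alone (adjusted p = 0.455). That at 24 h was lost without proximal 24 h b (0.0793) and without sham 24 h b (0.0572).

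In the middle window Bdnf was high in the 2 sham arrays that stood apart. The sham arrays read 7.51 (12 h a), 9.78 (12 h b) and 9.75 (16 h a), and the proximal arrays 8.19 and 9.86 at 12 h and 8.72 and 10.07 at 16 h. The high sham values came from the arrays whose Atf3 was 11.55 (12 h b) and 9.97 (16 h a), the second within the late sham range. The 4 arrays of set B read 9.75 to 10.07 for Bdnf in both lesions. The middle difference was 0.01 (95% interval -0.68 to 0.69). Without the 2 sham arrays it was 1.51 (limma adjusted p = 0.045). That value sets 1 sham array of set C, assumed to vary like the other groups, against 2 proximal arrays of 12 h, 1 of them in set B. Within technical sets at 12 h, 1 array against 1, it was 0.08 in set B and 0.68 in set C.

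**Figure D2:**
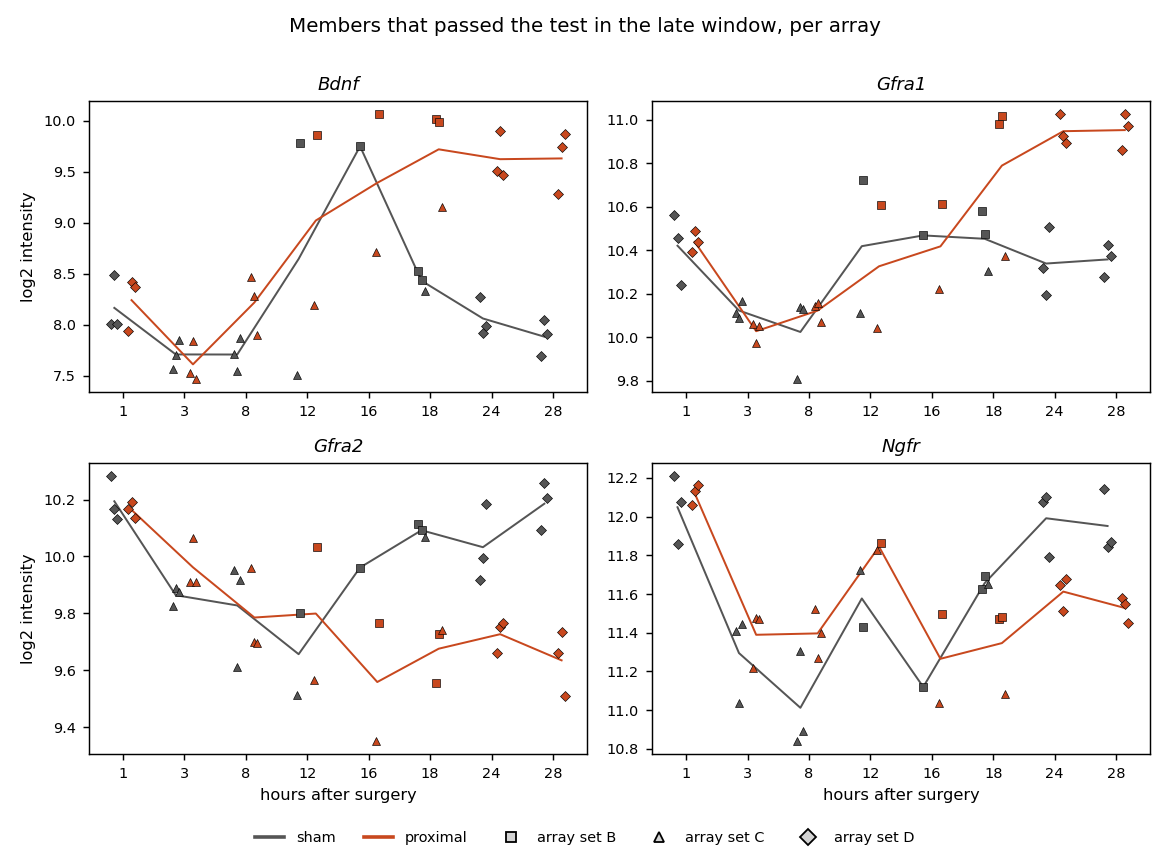
Level of Bdnf, Gfra1, Gfra2 and Ngfr (log2 intensity, vertical axis) by hours after surgery (horizontal axis, not to scale) in sham (grey) and proximal (orange) arrays; each point is 1 array, its shape is the technical set, and lines join the group means. Late proximal arrays lie above late sham arrays for Bdnf and below them for Gfra2, and proximal 18 h c, in set C, is the lowest late proximal array for Gfra1 (10.37) and Ngfr (11.09).

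Gfra1, the co-receptor that binds GDNF, rose with Bdnf. At 18 h it read 10.58, 10.48 and 10.30 in sham arrays and 10.98, 11.02 and 10.37 in proximal arrays. At 24 h the sham values were 10.32, 10.19 and 10.51 and the proximal values 11.03, 10.92 and 10.89. At 28 h the sham values were 10.28, 10.42 and 10.37 and the proximal values 10.86, 11.03 and 10.97. No sham value reached a proximal one at 24 or 28 h, and at 18 h proximal array c lay within the sham range. Over the late window Gfra1 rose by 0.51 (SE 0.08, limma adjusted p = 8.24e-06), a 1.43-fold rise with a 95% interval of 1.27 to 1.60. It was 0.58 without proximal 18 h c. The late difference exceeded the early one by 0.51 (SE 0.12, limma adjusted p = 0.00329).

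The other Gfra1 probe set (mean 9.10) rose by 0.71 (SE 0.17, limma adjusted p = 0.00296) in the late window. Early, Gfra1 differed by 0.01 between the lesions (95% interval -0.16 to 0.17), and in the middle window by -0.07. By hours the difference was 0.34 at 18 h (limma adjusted p = 0.337), 0.61 at 24 h (0.0137) and 0.59 at 28 h (0.00628). The call at 24 h was lost without proximal a, proximal b, sham a or sham b (adjusted p up to 0.143), that at 28 h without proximal b (0.0532), and 18 h passed without proximal c (0.0175). With the technical set as a block the 18 h difference stayed at 0.34 and passed (limma adjusted p = 0.0276). The 18 h arrays lie in sets B and C, in equal numbers in both lesions. Windows pool 9 arrays a lesion, and there no array left out ended the call (adjusted p up to 6.32e-05).

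Gfra2, the co-receptor that binds neurturin, moved the opposite way. Late sham arrays ran from 9.92 to 10.26 (median 10.09) and late proximal arrays from 9.51 to 9.77 (median 9.73), with no overlap. At 28 h the sham arrays read 10.09, 10.26 and 10.20 and the proximal arrays 9.66, 9.73 and 9.51. Over the late window Gfra2 differed by -0.42 (SE 0.07, limma adjusted p = 1.62e-05), 1.34-fold lower. It was -0.46 within set B at 18 h (2 arrays against 2) and -0.33 within set C (1 against 1). The late difference lay below the early one by 0.43 (the change was -0.43, SE 0.10, limma adjusted p = 0.00338).

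By hours Gfra2 passed at 28 h (-0.55, limma adjusted p = 0.00268), but not at 18 h (-0.42, 0.0746) or 24 h (-0.31, 0.413). The 18 h difference passed without proximal 18 h c (-0.45, limma adjusted p = 0.0363) and with the technical set as a block (-0.42, 0.0117). The second Gfra2 probe set, much dimmer (mean 6.61 against 9.66), differed by -0.22 late and did not pass (SE 0.23, limma adjusted p = 0.701). Its change between the early and late difference was 0.016, so the fall after a proximal lesion rests on the brighter probe set. Early, Gfra2 differed by 0.01 (95% interval -0.14 to 0.15), and in the middle window by -0.13 (-0.37 to 0.11).

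Gfra3, the co-receptor for artemin, did not pass the test in any window of proximal against sham. Late sham arrays ran from 9.84 to 10.14 and late proximal arrays from 9.11 to 10.17, and the groups overlapped. The lowest value was proximal 18 h c. The late difference was -0.14 (95% interval -0.40 to 0.11), and -0.06 without that array. Both lesions were low at 3 and 8 h, at 9.33 or less, and higher at 1 h, between 9.75 and 10.53. The arrays of 3 and 8 h were all in set C and those of 1 h all in set D, so hour and set cannot be told apart there.

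Ret, the kinase through which the GDNF family signals, was high throughout and did not pass in any window. Late sham arrays ran from 11.75 to 12.18 (median 12.08) and late proximal arrays from 11.11 to 12.64 (median 11.90), so the proximal range enclosed the sham range. The late difference was 0.01 (95% interval -0.26 to 0.28, limma adjusted p = 0.983). Its 2 other probe sets differed by -0.10 each (limma adjusted p = 0.694 and 0.614). At 18 h the sign depended on the technical set, with 0.45 in set B and -0.64 in set C.

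Gdnf itself lay at the level of dim probe sets. Its probe set had a mean of 5.27, below the filter level of 5.46, and ran from 4.80 to 5.74 over all 72 arrays. Late sham arrays read 5.04 to 5.59 and late proximal arrays 5.18 to 5.74, a difference of 0.06 (SE 0.09, limma without the filter, adjusted p = 0.851). A signal at this level cannot be told from background, so no level is claimed for it. Neurturin (Nrtn), neurotrophin-3 (Ntf3), neurotrophin-4 (Ntf4) and the co-receptor Gfra4 were below the filter too, with medians of 5.32, 5.03, 4.83 and 5.26. Artemin (Artn) was not analysed here.

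Ngfr encodes p75, the receptor shared by all neurotrophins, which is made by neurons and by glia. At 24 h it read 12.08, 12.10 and 11.79 in sham arrays and 11.65, 11.51 and 11.68 in proximal arrays. At 28 h it read 12.14, 11.84 and 11.87 in sham arrays and 11.58, 11.55 and 11.45 in proximal arrays. At 18 h the sham arrays read 11.63, 11.69 and 11.65 and the proximal arrays 11.47, 11.48 and 11.09. At each late hour the proximal arrays lay below the sham arrays, and over the whole window the 2 ranges overlapped, at 11.63 to 11.68. Over the late window Ngfr differed by -0.37 (SE 0.08, limma adjusted p = 0.000864), 1.29-fold lower with a 95% interval of 0.691 to 0.866 times the sham level. It was -0.33 without proximal 18 h c, and no single hour passed (limma adjusted p = 0.378, 0.303 and 0.0772 at 18, 24 and 28 h).

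The Ngfr call depended on which sham arrays it was set against. Sham arrays ran from 10.84 to 12.21 early and from 11.63 to 12.14 late. Against all 21 sham arrays pooled the late difference was -0.13 and did not pass (limma adjusted p = 0.487). That pool differs from the late proximal arrays in hour and technical set: its arrays of 3 and 8 h, all in set C, read 10.84 to 11.44. Within set D Ngfr differed by -0.38 at 24 h and -0.42 at 28 h. Early, Ngfr was the only member with an unadjusted p under 0.05, and it leaned the other way. It read 10.84, 11.30 and 10.89 in sham arrays at 8 h and 11.52, 11.27 and 11.40 in proximal arrays, a difference of 0.38 (limma adjusted p = 0.162). Without sham 8 h b it was 0.53 and passed (0.0402). The late difference lay below the early one by 0.55 (the change was -0.55, SE 0.11, limma adjusted p = 0.000956).

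Over the early window no member of 8 passed, where 0.13% of the genes tested did (limma). At an unadjusted p under 0.05 there were 1 member (Ngfr) and 1382 genes. In the middle window no member passed, where 0.114% of the genes tested did, and none had an unadjusted p under 0.05, against 1729 genes. Without sham 12 h b and sham 16 h a the middle comparison set 1 sham array of 12 h against 2 proximal arrays. The difference then went from negative to positive for Ntrk3 (-0.32 to 0.63), Ret (-0.32 to 0.45) and Gfra1 (-0.07 to 0.21). Gfra2 (-0.13 to 0.29) and Gfra3 (-0.40 to 0.39) changed sign too. Ntrk2 (-0.37 to -0.08), Ngfr (0.21 to 0.12) and Bdnf (0.01 to 1.51) kept theirs. The share of genes that passed was 0% at 1 h and 3 h (limma, with 247 and 307 genes at an unadjusted p under 0.05), 1.75% at 8 h, 0.0326% at 12 h and 0.0489% at 16 h. No member passed at any of these 5 hours with all arrays. Without proximal 16 h b, which sets a set C array against the set B sham array, Ret (-1.30) and Gfra3 (-1.29) passed at 16 h (limma adjusted p = 0.032 for each).

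Ntrk2, the receptor for BDNF, did not pass the test in any window of proximal against sham. Late sham arrays ran from 10.61 to 10.94 (median 10.86) and late proximal arrays from 9.88 to 11.16 (median 10.88). The late difference was -0.01 (95% interval -0.26 to 0.23, limma adjusted p = 0.981). Its 4 other probe sets differed by 0.02, -0.06, -0.34 and -0.02 in the late window, and none passed. Without proximal 18 h c, the lowest late proximal array, the difference was 0.12 and did not pass (limma adjusted p = 0.561).

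Ntrk3, the receptor for neurotrophin-3, had the widest range of the members over sham and proximal arrays, and its lesion groups overlapped. Late sham arrays read 5.54, 5.59 and 7.40 at 18 h, 5.84, 5.30 and 5.13 at 24 h, and 5.24, 5.54 and 5.56 at 28 h. Late proximal arrays read 5.46, 5.38 and 7.44 at 18 h, 5.91, 5.59 and 5.11 at 24 h, and 5.37, 5.44 and 5.81 at 28 h. The high array at 18 h was c in both lesions, the array of set C. The late difference was 0.04 (95% interval -0.56 to 0.64, limma adjusted p = 0.972).

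At 12 and 16 h the set B arrays of Ntrk3 read 8.97 and 8.87 in sham and 9.17 and 9.14 in proximal arrays, while the set B arrays of 18 h read 5.38 to 5.59. The set C arrays of 3 to 16 h read 7.13 to 7.94. Distal arrays ran from 6.76 to 9.70. Only 1 probe set carried the symbol Ntrk3 alone, so no other probe set could be set beside it. The part of array processing in these steps was not tested.

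**Figure D3:**
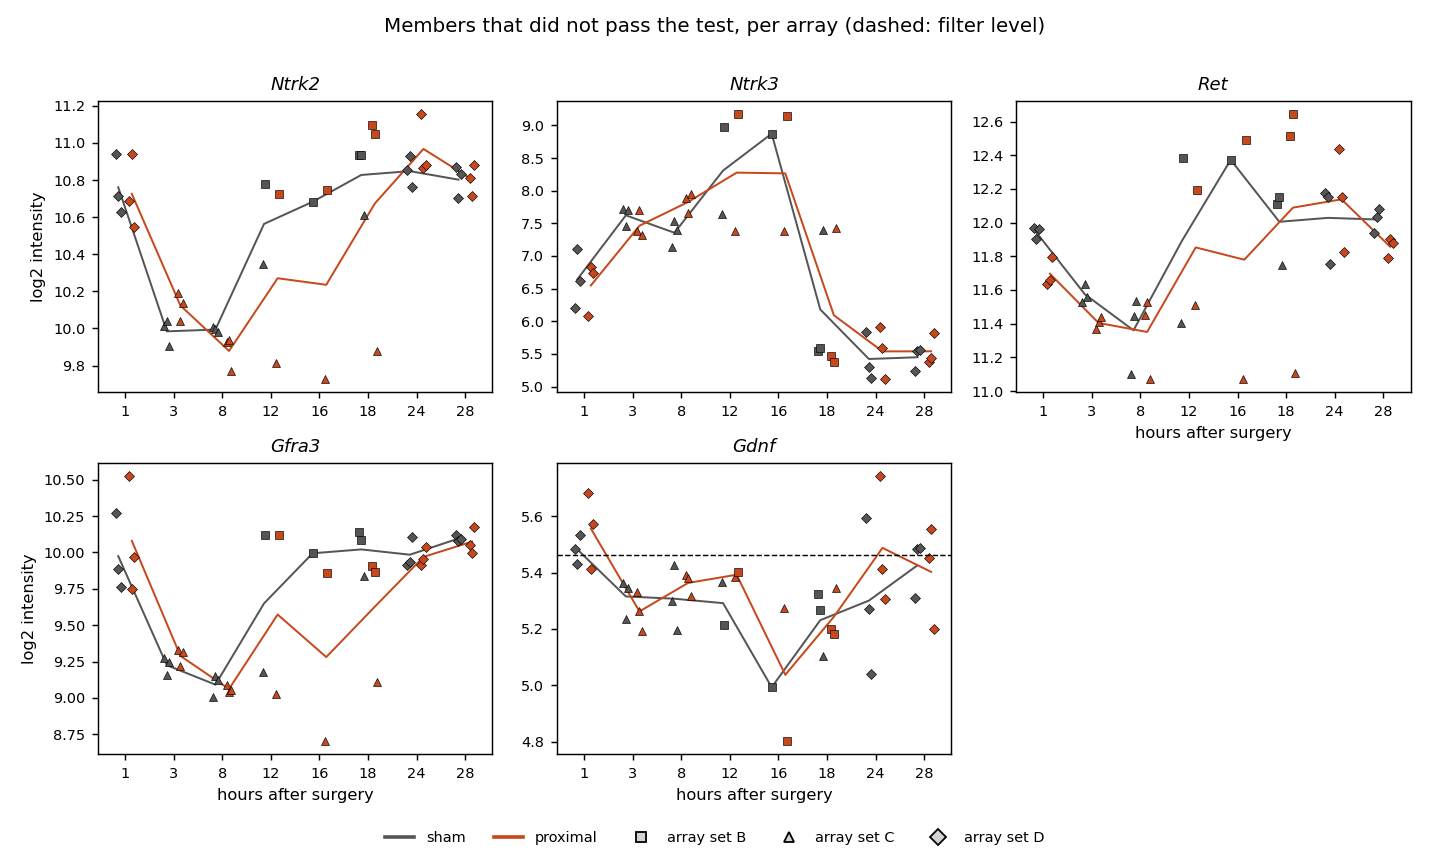
Level of Ntrk2, Ntrk3, Ret, Gfra3 and Gdnf (log2 intensity, vertical axis) by hours after surgery (horizontal axis, not to scale) in sham (grey) and proximal (orange) arrays; each point is 1 array, its shape is the technical set, lines join the group means, and the dashed line in the Gdnf panel is the filter level of 5.46. For Ntrk2, Ntrk3, Ret and Gfra3 arrays of 1 hour in different sets lie far apart in both lesions, as at 12 h.

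The probe sets of a member can be set side by side for the late window. Both probe sets rose for Bdnf and for Gfra1, 1 of 2 fell for Gfra2, and none passed for Ret (3 probe sets) and Ntrk2 (5). Ngfr, Ntrk3, Gfra3 and Gdnf had 1 each. Of the 18 probe sets, 4 brightest and 2 others passed. Among all genes tested, each by its brightest probe set, 9.71% passed, and a share over all probe sets is not given here.

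**Figure D4:**
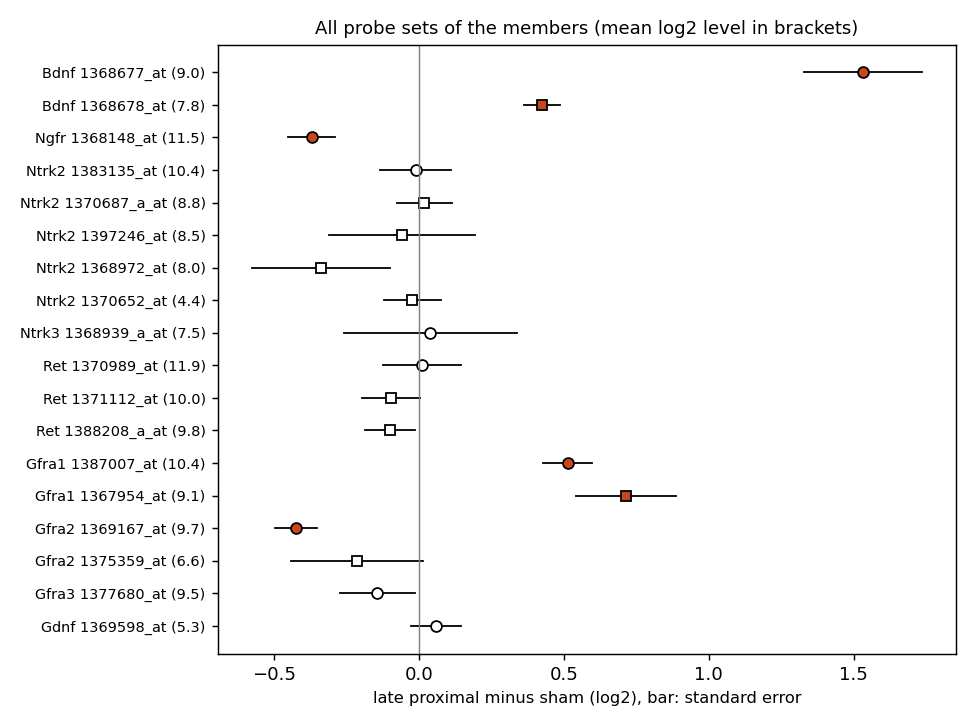
Late difference between proximal and sham arrays (log2 scale, horizontal axis) for all 18 probe sets of the members (vertical axis, mean log2 level in brackets); circles are the brightest probe set of a gene, squares the others, bars are 1 standard error, and filled symbols passed the test. Both Bdnf probe sets (1.53 and 0.43) and both Gfra1 probe sets (0.51 and 0.71) are filled, and the dimmer Gfra2 probe set (-0.22) is not.

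Distal arrays allow a comparison over time within 1 lesion. Between the early and late windows Bdnf, Gfra1 and Ntrk2 rose and Gfra2 and Ret fell, 5 of 8 members, where 25.3% of the genes tested passed. Sham means moved too, from 10.25 early to 10.83 late for Ntrk2, 10.19 to 10.38 for Gfra1 and 7.86 to 8.13 for Bdnf. For Gfra2 (9.96 to 10.10) and Ret (11.63 to 12.02) the late sham mean was the higher. Early and late sham arrays also differ in their technical sets. The distal change was not tested against the sham change. Bdnf ran from 8.88 to 9.85 in the 12 early distal arrays (median 9.35) and from 8.29 to 10.49 in the 12 late ones (median 10.12). The lowest late value was distal 18 h do, the 1 late distal array in set C, and the groups otherwise met only between 9.83 and 9.85. The Bdnf change was 0.69 (SE 0.18, limma adjusted p = 0.00327), and 0.82 within set A (11 arrays against 11). Its other probe set rose by 0.38 (limma adjusted p = 3.54e-07).

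Gfra1 ran from 9.98 to 10.52 in early distal arrays (median 10.25) and from 10.03 to 10.86 in late ones (median 10.64). Its change was 0.38 (SE 0.08, limma adjusted p = 9.49e-05). Its other probe set changed by -0.18 and did not pass (limma adjusted p = 0.433), so the rise of Gfra1 over time in distal arrays rests on 1 probe set. Gfra2 changed by -0.27 (SE 0.06, limma adjusted p = 0.0013) and its other probe set by -1.07 (limma adjusted p = 5.22e-05). Ret changed by -0.35 (SE 0.12, limma adjusted p = 0.0244), and its other probe sets by -0.32 and -0.56 (0.00613 and 1.15e-07). The 3 Ret probe sets thus fell together in the distal arrays.

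Ntrk2 rose by 0.44 (SE 0.11, limma adjusted p = 0.00155) on its brightest probe set. Its means by hour were 10.25 at 1 h, 9.81 at 3 h and 9.93 at 8 h, then 10.04 at 18 h, 10.76 at 24 h and 10.52 at 28 h. The 6 arrays of 18 h (9.59 to 10.35) thus lay within the early range of 9.73 to 10.78 but for the lowest, and the high late values were those of 24 and 28 h. Its 4 other probe sets changed by 0.03, 0.52, -0.41 and 0.17, and none passed (limma adjusted p = 0.848, 0.0869, 0.167 and 0.163). Ngfr (-0.16, limma adjusted p = 0.092), Gfra3 (-0.12, 0.5) and Ntrk3 (0.03, 0.947) did not pass. Without distal 3 h c the Ngfr change was -0.20 and passed (0.0428).

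**Figure D5:**
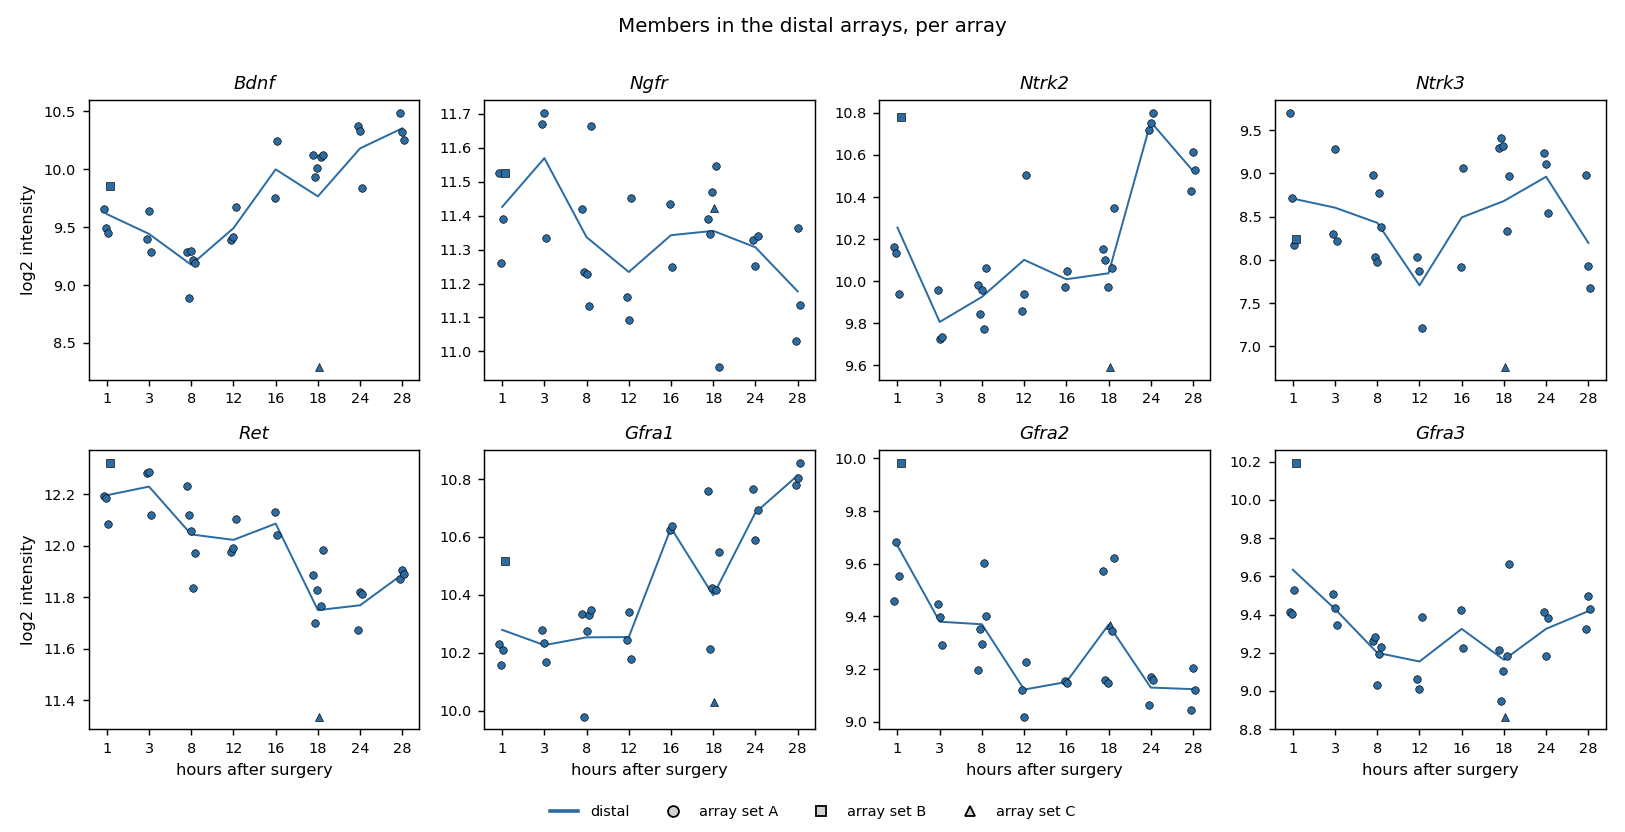
Level of the 8 members tested (log2 intensity, vertical axis) by hours after surgery (horizontal axis, not to scale) in the distal arrays; each point is 1 array, its shape is the technical set, and lines join the group means. Bdnf and Gfra1 are higher at 24 and 28 h than at 1 to 8 h in set A, and the single arrays of set B (1 h) and set C (18 h) stand apart for Gfra3 (10.19) and Bdnf (8.29).

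Late distal and late sham arrays differed for 7 of the 8 members, but 61.8% of all genes tested differed too, and lesion and technical set cannot be told apart. Bdnf was higher by 1.97, Ntrk3 by 2.93 and Gfra1 by 0.25, and Gfra2 (-0.90), Gfra3 (-0.73), Ngfr (-0.59) and Ntrk2 (-0.39) were lower. The 1 pair of arrays in 1 set, distal and sham of 18 h in set C, differed by -0.04 for Bdnf, -0.64 for Ntrk3 and -0.27 for Gfra1, none of which was higher. In the same pair Gfra2 (-0.70), Gfra3 (-0.97), Ngfr (-0.23) and Ntrk2 (-1.02) were lower, as in the whole comparison. Ret, the member that did not pass (-0.22, limma adjusted p = 0.141), differed by -0.60 and -1.05 on its other probe sets, which passed (6.29e-07 and 2.91e-15). For Ntrk2 the sign also depended on the probe set, with 1.69 and 1.30 for 2 of the dimmer ones. This comparison and the proximal one share their sham arrays. Early distal arrays, those of 1 h included, read 8.88 to 9.85 for Bdnf, against 7.55 to 8.49 in early sham arrays.

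Further genes of the same pathways were read from lists in the late proximal comparison. Among other neurotrophin ligands, receptors and processing enzymes, 0 rose and 1 fell of 13 tested (median -0.07). The 1 was Sorcs3, a sortilin-type receptor (-0.37, SE 0.11, limma adjusted p = 0.015). Among other GDNF family ligands and co-receptors 1 of 5 rose, Itgb1, an integrin subunit (0.26, limma adjusted p = 0.00264). All other members of the 2 lists that were tested did not pass. The shares called were 7.69% and 20%, the second from 5 genes, against 9.71% of all genes.

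Partners of p75 showed 1 rise and 3 falls among 18 tested, 22.2% against 9.71% of all genes (median 0.03, against -0.02 over all genes). Lingo1, which forms a complex with p75 and the Nogo receptor, changed by -0.61 (SE 0.15, limma adjusted p = 0.00511). The Nogo receptor Rtn4r changed by -0.34 (0.0297) and its relative Rtn4rl1 by -0.61 (0.000169). All 3 fell, as Ngfr did. The adaptor Traf4 rose by 0.36 (limma adjusted p = 0.00244). Among adaptors and signalling proteins of Trk and Ret, 2 rose and 2 fell of 39, a share of 10.3% that is near the 9.71% of all genes. Pik3ca, a catalytic subunit of PI3 kinase, rose by 0.58 and the kinase Rps6ka5 by 0.42, and the adaptors Frs3 and Shc1 changed by -0.56 and -0.34 (limma adjusted p = 0.00178, 0.0378, 0.004 and 0.00294).

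Of 22 tested genes that neurotrophins induce in culture, 7 rose and 1 fell (median 0.12), a share of 36.4% against 9.71% of all genes. Vgf, a secreted neuropeptide precursor, rose by 1.28 (SE 0.13, limma adjusted p = 1.23e-11), and the immediate-early factor Fos rose by 1.95 (4.87e-07). The neuropeptide Vip had a mean of 8.02 in late proximal arrays and of 5.39 in late sham arrays, below the filter level, so its difference of 2.63 can understate the change (limma adjusted p = 6.18e-24). The neuropeptide Y receptor Npy1r changed by -0.64 (limma adjusted p = 3.15e-05). Many of these genes are also known to respond to injury itself.

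Transcription factors of receptor-defined neuron classes were listed together with factors known from nerve injury, and of 21 tested 3 rose and 2 fell (23.8%, median -0.20). The 3 that rose do not define a neuron class: Atf3, also the label check above, and Sox11, both known as injury-induced, rose by 3.62 and 2.35, and Creb3, a membrane-bound factor, by 0.30 (limma adjusted p = 1.69e-14, 9.75e-15 and 0.0252). Isl2, a LIM homeodomain factor, changed by -0.84 (1.07e-06) and Mafa, a factor of mechanoreceptive neurons, by -0.33 (0.03). Of other growth factors and receptors that support neurons, 2 rose and 2 fell of 41 (median 0.05), a share of 9.76% that is near that of all genes. They were Fgf2 (0.55, limma adjusted p = 4.04e-05), Fgf7 (0.44, 0.00912), Vegfb (-0.35, 0.00753) and Fgf9 (-0.42, 0.0474). No gene of the 7 lists passed in the early window.

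Markers of other cells moved with the late comparison as follows. Of 15 macrophage markers 9 rose and none fell (median 0.48), among them Aif1 by 0.86 and Fcer1g by 0.73. The mean level of the list was 7.28 to 7.95 in late sham arrays and 7.70 to 8.65 in late proximal arrays, and their part in the member results was not tested. Of 10 satellite glia markers only Gfap rose (4.39-fold, limma adjusted p = 1.34e-18), and of 10 Schwann cell and 9 endothelial markers none passed. Of 10 fibroblast markers Fn1 and Postn rose by 0.41 and 0.57. None of 8 muscle markers passed (median -0.43), although their mean level ran up to 9.88 in a late sham array against at most 7.53 in late proximal arrays. Among 18 general sensory neuron markers Rbfox3 (-0.65) and Scn10a (-0.25) fell and the rest did not pass. Mrgprx3 (-0.34) and Scn11a (-0.27) fell among 4 markers of non-peptidergic nociceptors, the class in which Gfra2 is common. The other 2 of these markers did not pass (median of the 4 -0.15), and the part of this class in the Gfra2 result was not tested. Trpv1 changed by -0.40 and Adcyap1 by 1.78 among 5 peptidergic markers, and Asic1 by -0.46 and Spp1 by 0.37 among 9 of large neurons, all past the test.

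Patterns most like those of the 3 members with the smallest late p were sought over the 43 sham and proximal arrays, each gene less its mean in the technical set. These arrays share the lesion contrast and the hours, so the correlations are a description. The genes closest to Bdnf were Flrt3 (Pearson r 0.93), Sox11 (0.93) and Jun (0.90). Those closest to Gfra1 were Mmd (0.90), Adcyap1 (0.90) and Hamp (0.89), and those closest to Gfra2 were Rap1gap2 (0.89), Htr1d (0.84) and Trib2 (0.80). Among the members on the same arrays, Bdnf and Gfra1 had an r of 0.81, Bdnf and Gfra2 of -0.68, and Gfra1 and Gfra2 of -0.65. Late differences of these genes were 2.70 for Flrt3, 1.15 for Mmd and 1.68 for Hamp, and -0.55 for Rap1gap2, -0.95 for Htr1d and -0.65 for Trib2.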

How the data were processed

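The deposited table gave log2 intensities of 72 arrays, which the authors had processed with RMA, per the submitters' processing notes. RMA corrects background, sets the arrays to a common distribution and sums probes into probe sets. Its version, and whether all arrays were processed together, are not given in the sources used here. Lesion, hour and letter came from the labels. After 57 control probe sets were left out of 31099, 20826 probe sets had 1 gene symbol. Each gene was its brightest probe set, and means below the 25th percentile (5.46) were left out. Tests used limma 3.58.1 in R 4.3.3, with 1 mean for each of 24 groups (48 residual degrees of freedom), a trend, hours of a window weighted equally, and two-sided p-values adjusted by Benjamini-Hochberg. Dimmer probe sets were adjusted over genes tested with that probe set in place. Technical sets came from Ward clustering of the arrays on probe sets below the filter, cut at a chosen number of 4. Array numbers limit the precision. The script was tested on simulated data.

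The members and lists were chosen with earlier results of these data known. Named genes were all members, up to 4 genes of each pathway list with the smallest late p, and 3 genes for each of 3 members with the highest correlation; markers that passed were named after their values were seen. Pairs by letter correlated over 0.1 throughout at 2 of 6 hours with 3 pairs, so letters were not taken as pairs. These correlations were 0.48 to 0.70 at 1 h and 0.62 to 0.80 at 18 h, and negative at 3 and 8 h. Pairs within an hour were not modelled. Alternatives were other filters, another quantile normalization, array weights, blocks, pooled sham arrays, other probe sets, and leaving out arrays. Promoters came from RefSeq (GRCr8).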

Additional observations from a re-analysis of the deposited data

Results flagged for a closer look

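Groups of arrays were searched for a highest or lowest array far from the rest by Dixon's criterion. Chance flags about 1 in 20 independent groups of like arrays. The windows pool hours and mostly technical sets, and the same arrays recur across members, so that rate does not apply here. Among 81 groups of 4 to 10 arrays, 13 held such an array. Proximal 18 h c, the late proximal array of set C, was such an array for 5 members: it was the lowest of 9 late proximal arrays for Ntrk2 (9.88), Ngfr (11.09), Gfra1 (10.37) and Gfra3 (9.11) and the highest for Ntrk3 (7.44). Sham 18 h c, also in set C, was the highest late sham array for Ntrk3 (7.40). For Bdnf the arrays were sham 1 h b (8.49), the highest early sham array, distal 8 h b (8.88), the lowest at its hour, and distal 18 h do (8.29), the lowest at its hour and the 1 distal array in set C. The others were distal arrays: 12 h c for Ntrk2 (10.51, highest of the middle window), 18 h fo for Ngfr (10.95, lowest), 8 h b for Gfra1 (9.98, lowest) and 1 h do for Gfra3 (10.19, highest, and the 1 distal array in set B).

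The difference between proximal and sham arrays itself changed between the early and the late window for 4 of the 8 members tested, by limma's test of that change. They were Bdnf (1.37), Gfra1 (0.51), Gfra2 (-0.43) and Ngfr (-0.55), where 8.67% of the genes tested passed.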

How the results depend on the processing

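The late calls of Bdnf, Gfra1, Gfra2 and Ngfr kept their direction and passed under no filter, the filter at the 50th percentile, another quantile normalization, array weights, both blocks, only the arrays compared, without the 18 h arrays and in all 18 fits without 1 array. Exceptions were Ngfr against pooled sham arrays (-0.13 late, -0.14 late minus early) and the dimmer Gfra2 probe set. Ranges without 1 array were 1.48 to 1.63 for Bdnf, 0.47 to 0.58 for Gfra1, -0.44 to -0.40 for Gfra2 and -0.40 to -0.33 for Ngfr. Of 1486 recomputed member values 777 passed under neither setting, 137 of them with another sign.

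Counts of genes past the test (16 early, 14 middle, 1192 late, 1064 late minus early, 3103 distal) moved more, and the cause was not tested. They were 44 early and 9 middle at the 50th percentile filter. They were 165, 108, 1809 and 1819 with another quantile normalization. Array weights (limma's gene-by-gene method, as the default did not converge) gave 1425, 0 (limma), 4103, 4018 and 6402, with 1 early member (Ngfr, 0.19). The technical set as a block gave 588, 135, 2336 and 2544. With only the arrays compared, 62 early and 0 middle genes passed in limma (0 middle members at an unadjusted p under 0.05 with all arrays). Pooled sham arrays gave 76, 90, 1847 and 3283, with 1 middle member (Bdnf, 1.07) and 7 late minus early. With them Ntrk3 late was -1.01, and late minus early Ntrk2 was 0.57 and Gfra3 0.41, opposite in sign to the reported values and past the test (limma adjusted p = 0.0367, 0.00357 and 0.0499). Late minus early Ntrk3 (-1.56) and Ret (0.54) passed too, and distal minus sham Ntrk2 did not (-0.11). Set A alone gave 5399 for distal. Without sham 12 h b and 16 h a 523 middle genes and 1 member (Bdnf) passed. Without 1 array the early count ran from 1 (proximal 3 h b) to 187 (sham 1 h a) and the middle count from 2 (proximal 12 h a) to 246 (proximal 12 h b).

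Dimmer probe sets gave the opposite sign for Gfra1 (distal late minus early -0.18, distal minus sham -0.060), Ntrk2 (distal minus sham 1.69 and 1.30, distal late minus early -0.41) and Gfra2 (late minus early 0.016). Of these values only 1.69 and 1.30 passed (limma adjusted p = 5.74e-08 and 3.74e-06). With the array letter as a replicate block 107 early and 39 middle genes passed, and no member's call changed. That block gives a letter the same effect at all hours, so it does not test pairs within an hour. The letters were not shown to pair arrays. The technical set block brought Gfra1 and Gfra2 at 18 h and Ngfr at 28 h (limma adjusted p = 0.0386) past the test, and only that hour's arrays did so for Ngfr (0.0133). Ret late, distal minus sham, passed with another quantile normalization (-0.28), array weights (-0.26) and only the arrays compared (-0.22); array weights also brought Ret late minus early (0.22) and Ngfr distal late minus early (-0.16) past it. The 18 h, set A and middle sham alternatives were chosen after seeing the data.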
